A study of Danio rerio with 4 samples.

Results

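The 45 genes described here encode the subunits of RNA polymerases I, II and III and the basal factors of Pol I and Pol III. They are all genes of the deposited normalised table whose symbol begins with polr1, polr2, polr3, ubtf, rrn3, znrd1, gtf3c or brf1, or is taf1a, taf1b, taf1c or taf1d, among 32512 genes in all. Of the 45 genes, 22 (48.9%) were listed at 0 in every library, against 59.3% of all genes, and a 0 of that kind can come from the counting. Another gene, brf1a, had too few counts to test, which left 22 tested genes.

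RNA was sequenced from whole zebrafish embryos (Tübingen wild-type strain) collected 48 hours post fertilisation. One group had been injected with a control morpholino (control MO), and the other with the hace1-HECT morpholino (hace1 MO), a splice-blocking oligonucleotide whose splice site lies in the stretch of hace1 that encodes the catalytic HECT domain of this ubiquitin ligase. Each group had 2 libraries, A and B, each made from 3 pooled RNA samples of about 100 embryos. The comparison asks which genes change with less hace1, known as a tumour suppressor gene. The sequences of the oligonucleotides that define the groups are shown (5′ to 3′, as the submitters gave them):
hace1-HECT morpholino: ccctcgaactgttagacagaataaa
standard control morpholino: cctcttacctcagttacaatttata

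In eukaryotic cells Pol I transcribes the ribosomal RNA precursor in the nucleolus, Pol II transcribes messenger RNAs, and Pol III transcribes transfer RNAs and 5S ribosomal RNA. The enzymes share several small subunits, and each adds a pair of large catalytic subunits and peripheral subunits of its own. Pol I is brought to its promoter by selectivity factor 1 (SL1, with the subunits taf1a, taf1b, taf1c and taf1d), by the upstream binding factor ubtf and by rrn3. At transfer RNA and 5S ribosomal RNA genes, Pol III depends on TFIIIC (the gtf3c genes) and on TFIIIB (with brf1). Loss of Pol I subunits is known to disturb craniofacial development in zebrafish, and variants of POLR1A, POLR1C and POLR1D cause craniofacial syndromes in people. The counts here are of the messenger RNAs that encode these proteins and say nothing of polymerase activity.

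The libraries held from 5192490 (control A) to 10413981 (hace1 B) estimated counts. Over the 6390 genes averaging 100 counts or more, the control libraries differed by a median of 0.24 on the log2 scale and the hace1 MO libraries by 0.13. Markers of muscle (mylpfa), skin (krt4), blood (alas2) and neurons (elavl3) were above 0 in all 4 libraries, while others such as actc1b, hbae1 and cryaa were listed at 0. Among the markers read, gad2 of inhibitory neurons (log2 fold change -0.83, adjusted p = 0.0295, limma-voom) and rcvrna of photoreceptors (-1.69, adjusted p = 0.0356, limma-voom) fell in hace1 MO. The counts of rcvrna were low, at 42.8 and 47.9 in the controls (A, then B) and 20.2 and 17.0 in the morphants. The other retinal marker read, crx, was listed at 0. The neuronal genes elavl3 and snap25a, not called, had both hace1 MO libraries below both controls, as did 26.9% of all tested genes. The skin genes krt4, krt5 and cyt1, not called either, had both hace1 MO libraries above both controls, as did 26.7% of all tested genes. The part of neural cells in the polymerase values was not tested. The targeted gene hace1 had a level of 18.6 and 13.5 CPM (counts relative to the scaled library size) in control A and B, and of 13.7 and 13.5 CPM in hace1 A and B, with a log2 difference (log2 fold change, hace1 MO minus control MO) of -0.19 ± 0.22 (standard error, SE; adjusted p = 0.647, limma-voom). Blocked splicing may leave the total count as it was, so the knock-down was not checked by it. Libraries were sequenced 2 to a chip, with no record here of which, and if both of a group shared one, chip and morpholino cannot be told apart. In whole embryos, fewer cells of a type and less RNA per cell cannot be told apart.

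In hace1 morphants the largest Pol I subunit gene polr1a rose 1.81-fold, and the SL1 genes TAF1C and taf1a rose 2.01-fold and 2.10-fold. All 4 genes for subunits found in Pol I alone had both hace1 MO libraries above both controls, by 1.25-fold to 1.81-fold, as did 26.7% of all tested genes, and 1 of the 4 passed the test. None of the 5 tested Pol II genes was called, nor was the Pol III gene polr3e, and differences between the polymerases were not tested. The Pol I activator genes ubtf and ubtfl had slightly lower means in hace1 MO and were not called either. Of the 22 tested genes, 3 rose, 0 fell and 19 were not called (limma-voom, Benjamini-Hochberg adjustment over 10832 genes, called at an adjusted p below 0.05), where 2.76% of all tested genes were called, 1.38% higher and 1.38% lower. At an unadjusted p under 0.05, 6 of the 22 were higher and 0 lower, against 10.7% and 11.6% of all tested genes, and limma-trend called 3 higher and 0 lower. All 3 calls ended without hace1 A and without hace1 B, which leave 1 hace1 MO library and log2 differences from 0.70 to 1.07. They ended too in the authors' log2 values, fitted by limma without voom weights, where 1 gene was called in all.

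**Figure D1:**
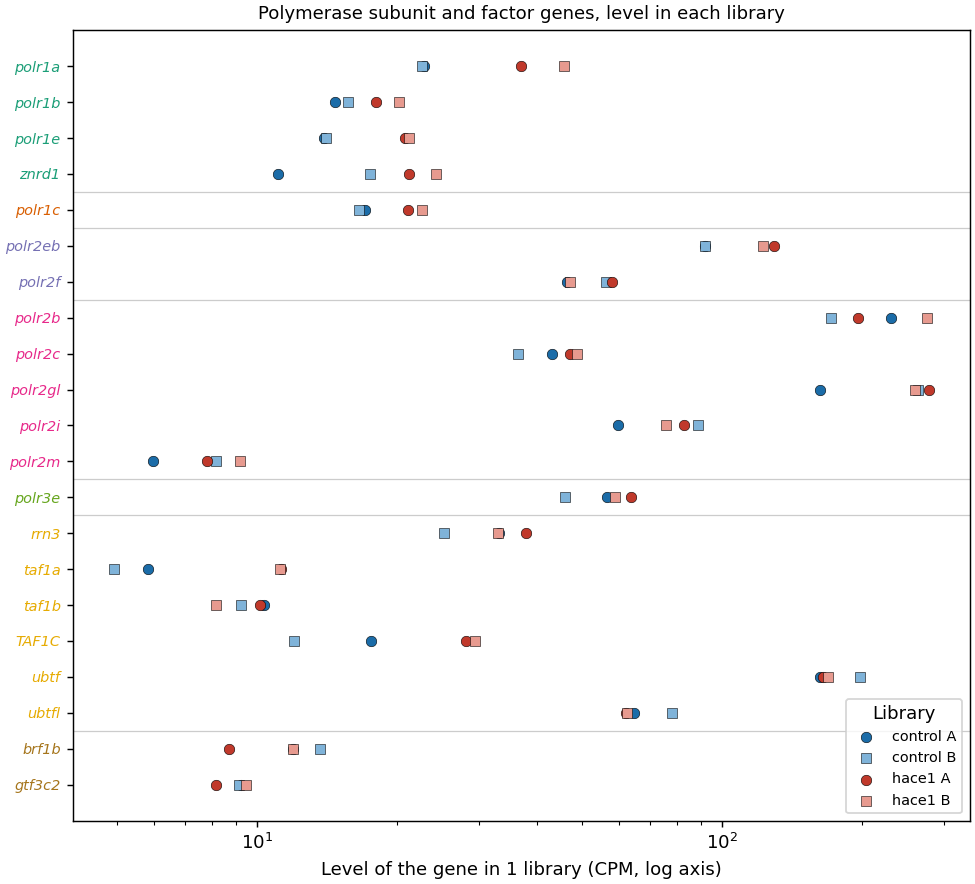
Level of the reported genes in each library, in CPM on a log axis, with circles for A and squares for B libraries, blue for control MO and red for hace1 MO, and gene names coloured by class. The blue and red points are apart for polr1a, polr1e, polr1c, polr2eb, taf1a and TAF1C, and mixed for polr2b, polr2f, polr2i and gtf3c2.

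Polr1a encodes the largest subunit of Pol I, which forms the catalytic centre together with that of polr1b. The level of polr1a (ENSDARG00000029172, build Zv9, chromosome 14, 20081338 to 20140596, 34 exon regions) was 22.8 and 22.6 CPM in the controls (A, then B) and 36.9 and 45.8 CPM in the morphants. The control libraries were nearly equal, and both hace1 MO libraries were higher. Means were 22.7 ± 0.179 CPM for control MO and 41.3 ± 6.28 CPM for hace1 MO (SD, 2 libraries each), with a log2 difference of 0.85 ± 0.18 SE (adjusted p = 0.0399, limma-voom). The adjusted p was 0.0503 when libraries were scaled by their totals alone and 0.0555 when only genes averaging 100 counts or more were tested.

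The counts of polr1a were spread along the gene. Of its 28 exon regions with a total count of at least 10, 26 had a higher mean level in hace1 MO than in control MO, and in 18 both hace1 MO libraries were above both controls. No region held more than 9.23% of its exon counts. Exon regions share their reads' libraries and are not replicates.

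Polr1b (ENSDARG00000077469, chromosome 13, 42570587 to 42593448) encodes the second large subunit of Pol I. Its level was 14.7 and 15.7 CPM in the controls (A, then B) and 18.0 and 20.2 CPM in the morphants. The groups did not overlap, but the log2 difference of 0.32 ± 0.19 SE was not called (adjusted p = 0.351, limma-voom), with a 95% interval of -0.10 to 0.75.

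Polr1e encodes a peripheral Pol I subunit (PAF53 in mammals), whose partner there is the product of cd3eap. The level of polr1e (ENSDARG00000006434, chromosome 1, 18379207 to 18390122) was 13.9 and 14.04 CPM in the controls (A, then B) and 20.8 and 21.2 CPM in the morphants. The replicates of each group were close and the groups stood apart. The log2 difference was 0.58 ± 0.19 SE, with an interval of 0.17 to 1.00, and missed the threshold (adjusted p = 0.109, limma-voom).

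Znrd1 encodes the small zinc-ribbon subunit of Pol I that takes part in RNA cleavage. The level of znrd1 (ENSDARG00000036070, chromosome 19, 27820192 to 27825522) was 11.1 and 17.5 CPM in the controls (A, then B) and 21.2 and 24.2 CPM in the morphants. Control A was well below control B, and both lay under the hace1 MO libraries. The log2 difference of 0.66 ± 0.23 SE was not called (adjusted p = 0.125, limma-voom). It was 1.02 without control B and 0.38 without control A, each of which leaves 1 control library. It was called with the replicate block and the length trend removed together (adjusted p = 0.0413, limma-trend). Of 5 exon regions of znrd1 with a total count of at least 10, 3 had a higher mean in hace1 MO. In 0 of them were both hace1 MO libraries above both controls. Counts of an exon are split between transcripts, and 1 line was kept per region. The exon regions of znrd1 thus held 51.45% and 85.5% of its count in the controls (A, then B) and 43.6% and 49.9% in the morphants. Its exon levels therefore do not compare the groups evenly. The transcript znrd1-003, chosen after its values were seen, held 21.8% and 5.26% in the controls (A, then B) and 45.3% and 41.3% in the morphants.

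A further pair of Pol I subunit genes, not caught by the symbols above, came from a list of related genes. Cd3eap, whose current symbol is polr1g, had 17.9 and 16.4 CPM in the controls (A, then B) and 26.6 and 28.1 CPM in the morphants. Its log2 difference of 0.68 ± 0.18 SE was not called (adjusted p = 0.0657, limma-voom). Twistnb, now POLR1F, had 18.0, 22.9, 28.5 and 38.7 CPM in the same order, with a log2 difference of 0.69 ± 0.21 SE (adjusted p = 0.0899, limma-voom). Both genes had their hace1 MO libraries above both controls, as did 26.7% of all tested genes, and neither passed the test. Of the 4 genes of that list 0 were called. At an unadjusted p under 0.05, 2 were higher and 0 lower, against 10.7% and 11.6% of all tested genes.

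**Figure D2:**
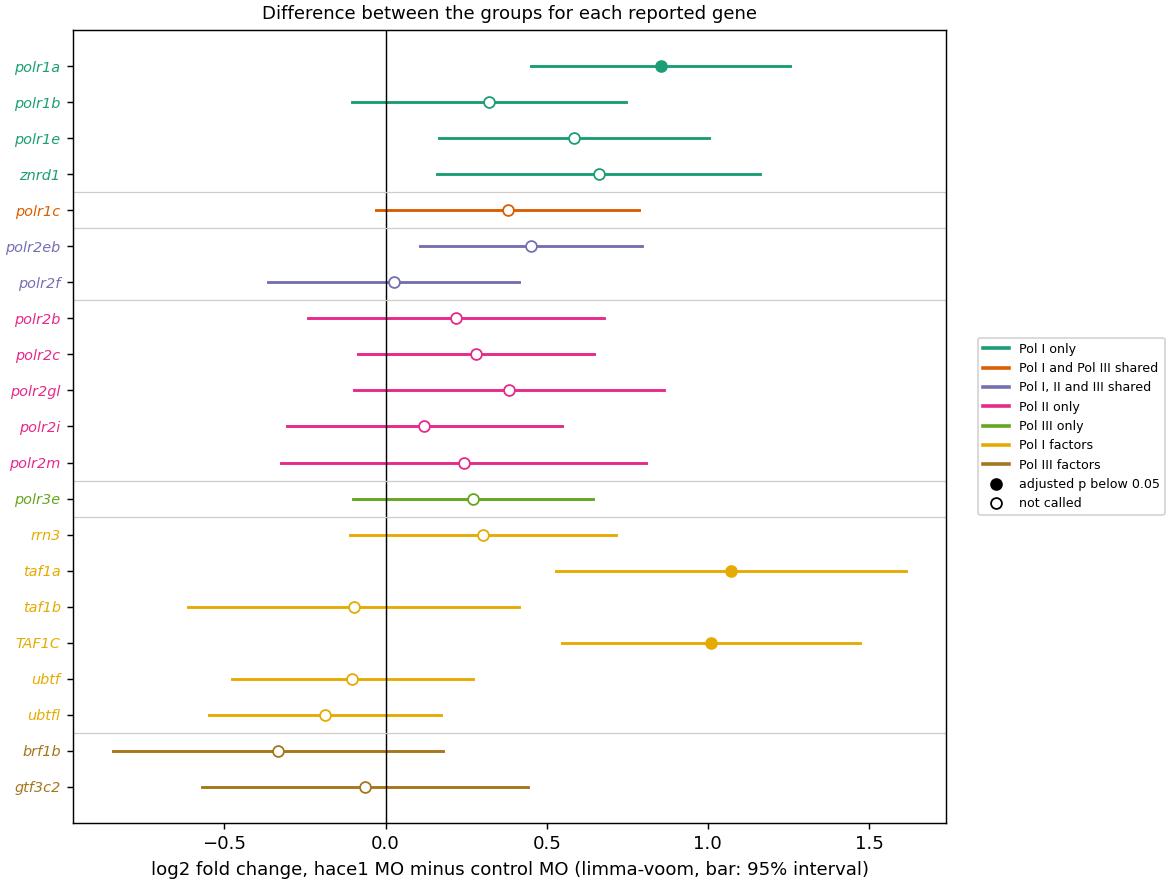
Log2 difference of each reported gene, hace1 MO minus control MO, from limma-voom, with bars for the 95% interval, filled points for genes called at an adjusted p below 0.05 and colours for classes. The 3 filled points are polr1a, TAF1C and taf1a, and the points of the subunit genes lie between 0.03 and 0.85, with polr2f and polr2i below 0 when libraries are scaled by their totals alone.

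Of the subunits that Pol I shares, polr1c also serves Pol III. The level of polr1c (ENSDARG00000039400, chromosome 13, 28913957 to 28918526) was 17.1 and 16.6 CPM in the controls (A, then B) and 21.1 and 22.6 CPM in the morphants. The groups did not overlap, and the log2 difference of 0.38 ± 0.19 SE was not called (adjusted p = 0.252, limma-voom). Its partner gene polr1d was listed at 0.

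Polr2eb and polr2f encode subunits common to all 3 polymerases. The level of polr2eb (ENSDARG00000026183, chromosome 22, 17830675 to 17835665) was 91.9 and 91.7 CPM in the controls (A, then B) and 129 and 122 CPM in the morphants. The controls were almost identical, and both hace1 MO libraries were higher. The log2 difference of 0.45 ± 0.16 SE had an interval of 0.11 to 0.80 and was not called (adjusted p = 0.128, limma-voom). It was 0.46 without control A and 0.44 without control B, each of which leaves 1 control library. Its related gene POLR2E was listed at 0, so reads of a near copy could have been counted under polr2eb. Polr2f had 46.3 and 56.2 CPM in the controls (A, then B) and 57.9 and 46.9 CPM in the morphants. Its groups overlapped fully, and its log2 difference of 0.026 ± 0.18 SE had an interval of -0.36 to 0.41 (adjusted p = 0.948, limma-voom). Polr2h, polr2k and polr2l, the other shared subunit genes, were listed at 0.

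Among the genes of Pol II, polr2a, which encodes the largest subunit with its repeated carboxy-terminal tail, was listed at 0, as were polr2d, polr2j and POLR2M. Polr2b encodes the second largest subunit. Its level was 230 and 171 CPM in the controls (A, then B) and 196 and 275 CPM in the morphants. The groups overlapped and the log2 difference was 0.22 ± 0.21 SE (adjusted p = 0.575, limma-voom). It was 0.45 without control A and 0.0053 without control B. Polr2b shares 199 exon bases with noa1 on the other strand, and whether counting used strand is not stated in these sources.

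Polr2gl encodes a counterpart of the stalk subunit RPB7. Polr2gl had 162 and 264 CPM in the controls (A, then B) and 278 and 259 CPM in the morphants, so control A stood below the other 3 libraries. Its log2 difference was 0.38 ± 0.22 SE (adjusted p = 0.327, limma-voom), but it was 0.72 without control B and 0.03 without control A. Polr2i, for the subunit RPB9, had the same low control A, with 59.7 CPM against 88.5 CPM in the other control and 82.8 and 75.8 CPM in the morphants. For polr2i the log2 difference was 0.12 ± 0.20 SE (adjusted p = 0.758, limma-voom) and became -0.15 without control A.

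Polr2c, for the assembly subunit RPB3, was the only tested Pol II gene whose groups did not overlap. The level of polr2c (ENSDARG00000033596, chromosome 25, 14630170 to 14639512) was 43.1 and 36.5 CPM in the controls (A, then B) and 47.1 and 48.8 CPM in the morphants. The log2 difference was 0.28 ± 0.17 SE with an interval of -0.08 to 0.65 (adjusted p = 0.344, limma-voom). Polr2m, whose human counterpart binds Pol II and competes with TFIIF, had 5.98 and 8.17 CPM in the controls (A, then B) and 7.79 and 9.18 CPM in the morphants, with overlapping groups and a log2 difference of 0.24 ± 0.26 SE (adjusted p = 0.618, limma-voom).

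Most genes for subunits particular to Pol III were listed at 0, among them those of its catalytic pair, polr3a and polr3b. Polr3e encodes a peripheral subunit. The level of polr3e (ENSDARG00000037358, chromosome 12, 1211473 to 1231515) was 56.5 and 45.8 CPM in the controls (A, then B) and 63.8 and 58.8 CPM in the morphants. The groups came close without overlapping, and the log2 difference was 0.27 ± 0.17 SE (adjusted p = 0.367, limma-voom).

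Of the 6 tested Pol I factor genes 2 were called, against 2.76% of all tested genes, and differences between these genes were not tested. TAF1C encodes a subunit of SL1, which in mammals binds rrn3. The level of TAF1C (ENSDARG00000096310, chromosome 21, 5787537 to 5806388, 10 exon regions) was 17.6 and 12.0 CPM in the controls (A, then B) and 28.1 and 29.4 CPM in the morphants. Both hace1 MO libraries were well above both controls. Means were 14.8 ± 3.92 CPM for control MO and 28.7 ± 0.919 CPM for hace1 MO (SD, 2 libraries each), with a log2 difference of 1.01 ± 0.21 SE (adjusted p = 0.0388, limma-voom). All 10 of its exon regions had a higher mean in hace1 MO, and in 6 both hace1 MO libraries were above both controls. Of its exon counts 42.5% lay in 1 region. The log2 difference was 0.70 without control B and 1.26 without control A, and the adjusted p was 0.0555 when only genes averaging 100 counts or more were tested.

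Taf1a encodes another SL1 subunit. The level of taf1a (ENSDARG00000052471, chromosome 20, 52152289 to 52213145, 11 exon regions) was 5.82 and 4.93 CPM in the controls (A, then B) and 11.3 and 11.2 CPM in the morphants. The hace1 MO libraries nearly coincided, and both lay above both controls. Means were 5.38 ± 0.630 CPM for control MO and 11.2 ± 0.0153 CPM for hace1 MO (SD, 2 libraries each), and the log2 difference was 1.07 ± 0.25 SE (adjusted p = 0.0464, limma-voom). The counts of taf1a were low, at 33.6, 42.4, 105 and 111 in the same order. Of its 10 exon regions with a count of at least 10, 8 had a higher mean in hace1 MO. In 4 of them both hace1 MO libraries were above both controls. The locus of taf1a lies inside that of aida on the same strand and overlaps mia3 on the other strand, but shares 0 exon bases with either. Genes of greater exonic length tended lower, from a median log2 difference of 0.061 in the shortest of 5 length classes to -0.12 in the longest. The adjusted p of taf1a was 0.0601 with library totals, 0.0516 with no filter and 0.0568 after the trend with exonic length was removed.

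**Figure D3:**
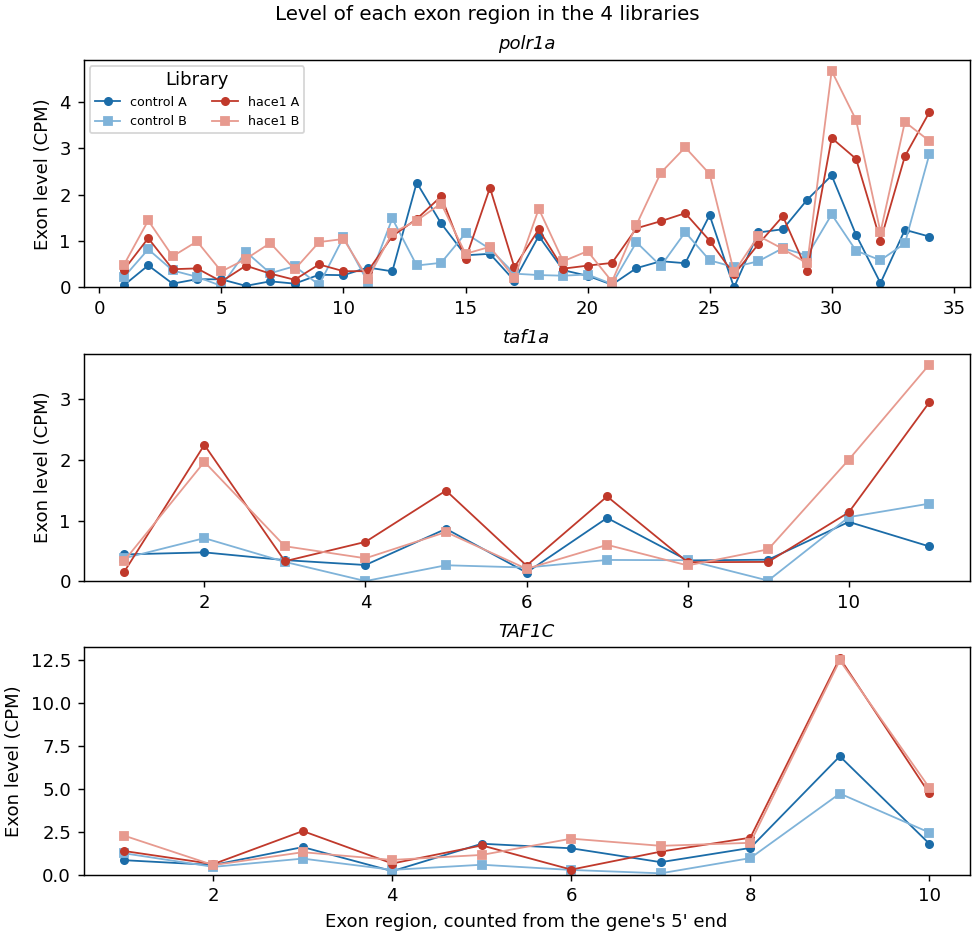
Level in CPM of each exon region of polr1a, taf1a and TAF1C, counted from the 5′ end of the gene, with 1 line per library, blue for control MO and red for hace1 MO. The mean was higher in hace1 MO in 26 of the 28 regions of polr1a, 8 of the 10 of taf1a and 10 of the 10 of TAF1C that had a total count of at least 10. Both hace1 MO libraries were above both controls in 18, 4 and 6 of these.

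The other SL1 gene, taf1b, had 10.3 and 9.26 CPM in the controls (A, then B) and 10.1 and 8.18 CPM in the morphants. Its groups overlapped, and its log2 difference of -0.10 ± 0.24 SE had an interval of -0.61 to 0.41 (adjusted p = 0.840, limma-voom). Rrn3, which links Pol I to SL1 at the promoter, had 33.2 and 25.2 CPM in the controls (A, then B) and 37.9 and 33.0 CPM in the morphants. The groups of rrn3 overlapped, with a log2 difference of 0.30 ± 0.19 SE (adjusted p = 0.365, limma-voom).

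Ubtf, which encodes the upstream binding factor, had 162 and 198 CPM in the controls (A, then B) and 165 and 168 CPM in the morphants. Its groups overlapped, and the log2 difference was -0.10 ± 0.17 SE, with an interval of -0.48 to 0.27 (adjusted p = 0.763, limma-voom). The level of its relative ubtfl (ENSDARG00000038780, chromosome 2, 32075481 to 32105316) was 64.5 and 77.8 CPM in the controls (A, then B) and 62.1 and 62.5 CPM in the morphants. Of the 22 genes ubtfl alone had both hace1 MO libraries below both controls, and its log2 difference of -0.19 ± 0.16 SE was not called (adjusted p = 0.538, limma-voom). Ubtf and ubtfl are related in sequence, so the split of reads between them may be uncertain, which was not tested.

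Among the Pol III factors, gtf3c3, GTF3C1, gtf3c4, gtf3c5 and gtf3c6 were listed at 0. The TFIIIC gene gtf3c2 had 9.25 and 9.13 CPM in the controls (A, then B) and 8.16 and 9.46 CPM in the morphants, with overlapping groups and a log2 difference of -0.065 ± 0.23 SE. The TFIIIB gene brf1b had 11.9 and 13.7 CPM in the controls (A, then B) and 8.69 and 11.9 CPM in the morphants, and a log2 difference of -0.33 ± 0.23 SE (adjusted p = 0.423, limma-voom). Its groups overlapped narrowly. Brf1a stayed under 1 CPM in every library.

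Set side by side, the median log2 difference was 0.62 over the 4 genes of Pol I alone and 0.24 over the 5 of Pol II, where the median of all tested genes was 0.0051. It was 0.10 over the 6 Pol I factor genes, and its sign turned with library totals (-0.041). Over the 2 Pol III factor genes it was -0.20, and over the 2 tested subunit genes common to all 3 polymerases 0.24. The Pol III subunit gene polr3e was at 0.27, and polr1c, which serves Pol I and Pol III, at 0.38. These are medians over few genes or values of single genes, and differences between the polymerases were not tested. All 14 tested subunit genes caught by the symbols given at the start had a log2 difference above 0, against 50.5% of all tested genes. Outside those symbols, the Pol I subunit genes cd3eap and twistnb were at 0.68 and 0.69, and the Pol III subunit gene crcp at -0.02. With library totals polr2f and polr2i were below 0, and polr2f also after the length trend was removed. Polr2b, polr2f and polr2i were below 0 with a library left out, so that 11 of the 14 kept their sign in every setting. In 11 of the 22 tested genes both hace1 MO libraries were above both controls, and in 1 both were below, against 26.7% and 26.9% of all tested genes.

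The libraries did not contribute alike to the classes. The mean deviation of log2 CPM over the 4 Pol I genes was -0.40 and -0.21 in the controls (A, then B) and 0.22 and 0.39 in the morphants. Over the 5 Pol II genes the controls were also both lower, at -0.23 and -0.023 against 0.072 and 0.18, with control B close to hace1 A. The controls were both lower over the 6 Pol I factor genes too, at -0.095 and -0.22 against 0.19 and 0.13. Of these 6 genes, however, 3 had a log2 difference below 0, and the called genes taf1a (1.07) and TAF1C (1.01) had the largest. Over the 2 Pol III factor genes the groups overlapped, at 0.052 and 0.14 against -0.26 and 0.068. The Pol II median was 0.061 without control A.

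**Figure D4:**
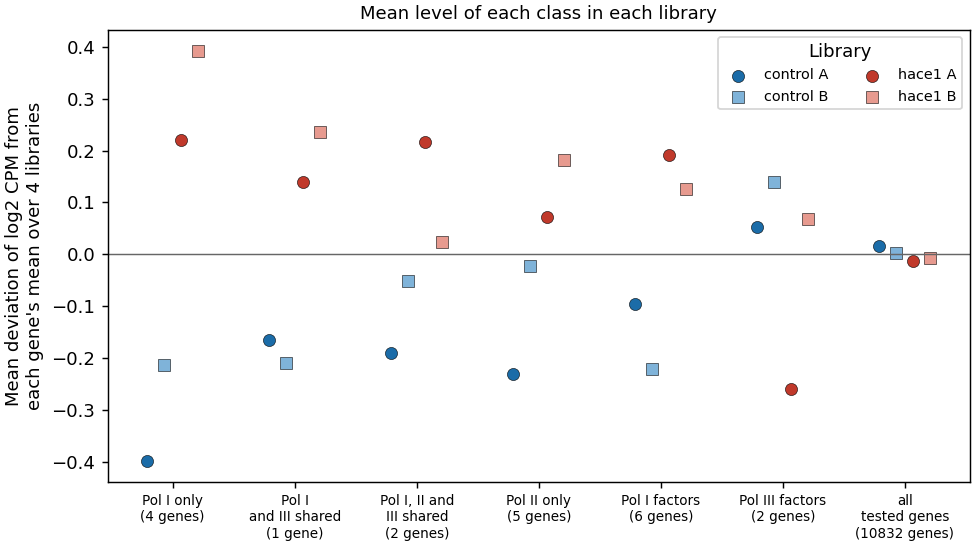
Mean over the tested genes of each class shown of the deviation of log2 CPM from the gene's mean over the 4 libraries, 1 point per library, with circles for A and squares for B. The Pol I genes lie at -0.40 and -0.21 in the controls and at 0.22 and 0.39 in hace1 MO, and library scaling by totals shifts the median log2 difference of all tested genes to -0.14.

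Levels were also compared between genes as CPM per kb of exonic length, averaged over the 4 libraries. Polr2gl was the most abundant at 165 CPM per kb, followed by polr2eb at 102, polr2i at 70.4, polr2f at 65.5 and polr2b at 57.0. The Pol III gene polr3e had 17.2 CPM per kb. The Pol I genes lay between 4.86 for polr1b and 19.2 for znrd1, with polr1a at 6.06, and the SL1 genes between 3.32 for taf1b and 6.44 for TAF1C. Among the Pol I factors ubtf stood highest at 39.3. In the plotted order the ranges over the 4 libraries overlapped between neighbours except after polr2eb, ubtf, polr2c and taf1b.

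**Figure D5:**
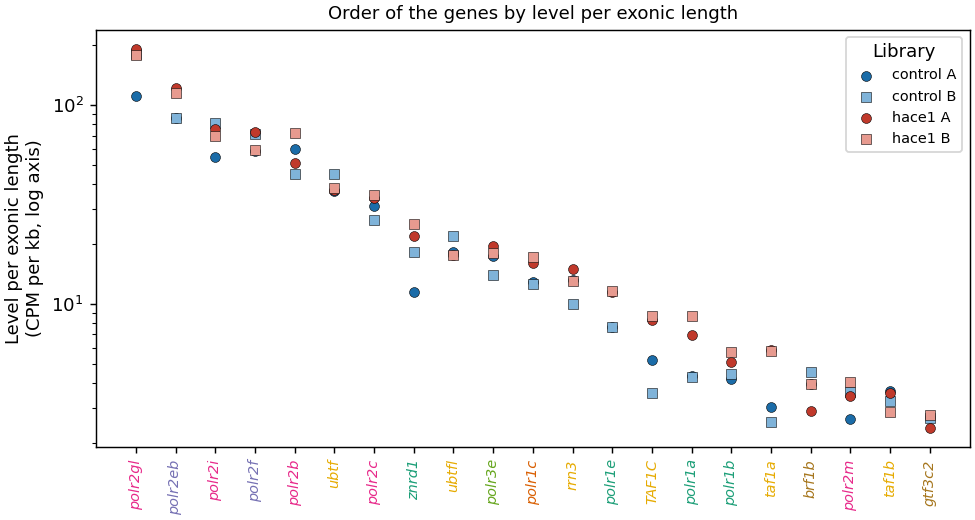
Level per exonic length of the reported genes in each library, in CPM per kb on a log axis, ordered by the mean over the 4 libraries, blue for control MO and red for hace1 MO. Polr2gl is highest with a mean of 165 CPM per kb, gtf3c2 lowest with 2.62, and the means of the subunit genes of Pol I alone lie at or below 19.2.

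Exon use was tested over all genes with limma's diffSplice. The exon regions held at least 99.8% of the gene's count in every library for polr1a, taf1a and TAF1C, but as little as 10.97% for taf1b (control A) and 43.6% for znrd1 (hace1 A), since counts of an exon are split between transcripts and 1 line was kept. Of the 22 genes 0 were called, and polr2f alone had an unadjusted p under 0.05, where 0.0639% of all genes with at least 2 exon regions were called. The deposited shares of single transcripts differed widely between the control libraries for some genes, of which these were chosen after their values were seen. The transcript taf1b-201 held 80.5% in control A and 6.46% in control B, against 21.9% and 19.8% in the morphants. The transcript polr1e-004 held 2.72% in control A and 34.7% in control B, against 36.2% and 20.6%. For the called gene taf1a, the listed transcript taf1a-002 held 21.9% and 16.5% in the controls (A, then B) and 31.3% and 29.1% in the morphants. No depth is given for these shares, and the transcripts listed for a gene do not always add up to the whole.

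Other genes of the transcription machinery were read from the same fit. Of all tested genes 1.38% were called higher and 1.38% lower. In the list of further Pol I and nucleolar factors, 1 of 5 tested genes rose and 0 fell (median log2 difference 0.07). This was mycb, a Myc gene whose relatives drive ribosome synthesis in mammals, with 44.0 and 51.2 CPM in the controls (A, then B) and 72.9 and 84.1 CPM in the morphants. The hace1 MO libraries of mycb were both higher, by a log2 difference of 0.72 ± 0.17 SE (adjusted p = 0.0483, limma-voom). The nucleolar phosphoprotein gene nolc1 had a log2 difference of 0.79 ± 0.22 SE and baz2a, which in mammals silences ribosomal RNA genes, of -0.73 ± 0.18 SE, and neither was called (adjusted p = 0.0661 and 0.0522, limma-voom).

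Against 1.38% higher and 1.38% lower of all tested genes, 1 of 20 tested Mediator genes, which link Pol II to activators, rose and 0 fell (median 0.09). It was med28, with 41.8 and 62.8 CPM in the controls (A, then B) and 91.8 and 94.3 CPM in the morphants, and a log2 difference of 0.85 ± 0.20 SE (adjusted p = 0.0466, limma-voom). Limma-trend called neither med28 nor mycb. None of 14 tested Pol II elongation factor genes was called by limma-voom or limma-trend, with 4 higher and 2 lower at an unadjusted p under 0.05 (median 0.14), where 10.7% and 11.6% of all tested genes were. Supt16h, for a FACT subunit, was their most abundant member, at a log2 difference of 0.06 ± 0.19 SE. Others lay further from 0 without being called. Nelfa had a log2 difference of 0.89 ± 0.23 SE, ell2 of 0.58 ± 0.17 SE and aff4 of -0.58 ± 0.17 SE. Their adjusted p-values were 0.0593, 0.0776 and 0.0854 (limma-voom).

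The initiation factors of Pol II held no call in limma-voom or limma-trend. The TBP genes tbp, tbpl1 and tbpl2 were listed at 0. Of 12 tested genes in a list of TFIID and related taf genes 0 were called (median 0.14). The most abundant gene of that list, taf15, had a log2 difference of 0.31 ± 0.20 SE. At an unadjusted p under 0.05, 2 of the 12 were higher and 0 lower, against 10.7% and 11.6% of all tested genes. The TFIIB gene gtf2b was listed at 0, and the TFIIA gene gtf2a1 was at 0.09 ± 0.16 SE. Of 15 tested genes of TFIIA, E, F and H 0 were called and 0 had an unadjusted p under 0.05 (median 0.17). The same counts of 0 held for 9 further Pol III genes (median 0.05), where MAF1, a repressor of Pol III, was at -0.09 ± 0.16 SE. They held too for 8 genes of polymerase assembly and tail phosphatases (median -0.06), whose most abundant listed gene was r3hdm1 (-0.14 ± 0.24 SE), an RNA-binding protein gene not known for either role. The mitochondrial polymerase gene POLRMT and the Pol III subunit gene crcp were at 0.41 ± 0.22 and -0.02 ± 0.23 SE and were not called.

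Markers of proliferating cells were read beside these genes. Of 20 annotated marker genes 11 were listed at 0, among them pcna, cdk1, top2a and aurkb, and 8 were tested. The summed level of the 8 was 2643 and 2483 CPM in the controls (A, then B) and 3145 and 3232 CPM in the morphants, higher in both hace1 MO libraries. Without mcm7, the sum of the other 7 was 1646 and 1426 CPM in the controls and 1605 and 1646 CPM in the morphants, and the groups overlapped. None of the 8 was called by limma-voom or limma-trend. At an unadjusted p under 0.05, 2 were higher and 1 lower, against 10.7% and 11.6% of all tested genes. The most abundant, mcm7, had a log2 difference of 0.61 ± 0.19 SE (adjusted p = 0.0905, limma-voom), while rrm2 was at -0.58 ± 0.19 SE. The part of proliferating cells in the Pol I values was not tested.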

How the data were processed

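Cutadapt 1.2.1, TopHat2 2.0.6 and Bowtie2 2.0.2 are named, with DESeq and build Zv9, per the submitters' processing notes. The counting step is not stated in these sources. Estimated counts were deposited by the authors per gene and exon, and each transcript's share, as named pairs in an annotation file (unit recorded as other). The authors also deposited a log2 table, centred on each gene's median. Groups follow the morpholino in the labels. No label names separate clutches, so p-values reflect the spread of pooled libraries, which may be technical.

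TMM scaling was computed directly (30% and 5% trimmed) and sets the CPM. Genes needed 10 counts, scaled to the median library, in 2 libraries and 15 in total. They were tested with limma-voom (limma 3.58.1, R 4.3.3), with group as the term and Benjamini-Hochberg adjustment. Count models were not run, because of the recorded unit. Overlapping exons were merged, keeping the line of highest count, and diffSplice used regions with a total count of at least 10. Scripts were tested on simulated data. Alternatives were other scalings, filters, limma-trend, the authors' log2 values, a length correction, a replicate block and left-out libraries.

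Genes called, or with non-overlapping groups and a mean of at least 5 CPM, were described in full. Of each related list, up to 3 called genes or else the most abundant were named. Nolc1, baz2a, nelfa, ell2, aff4, rrm2, gad2, rcvrna, snap25a, krt5 and cyt1 were named after their values were seen. Genes and lists were chosen with earlier results of these data known. The values of 1 tested gene are not reported here, and it stayed in the fits and counts.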

Additional observations from a re-analysis of the deposited data

How the results depend on the processing

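With a library left out, the lone library of its group is assumed to vary like the other group. Genes called in all (299) then ranged from 8 to 2572, polymerase genes called (3) from 0 to 6 and related-list genes called (2) from 0 to 24. With library totals alone these counts were 628, 1 and 4, and the median log2 difference of all tested genes shifted to -0.14. Medians were then 0.47 for Pol I alone, 0.23 for polr1c, 0.082 for the subunits common to all 3, 0.091 for Pol II and -0.041 for the Pol I factors. Testing only genes averaging 100 counts or more gave 61, 0 and 0 calls, and the authors' log2 values gave 1, 0 and 0. With the exonic length trend removed, 160 genes and 0 related-list genes were called, and with no filter or with limma-trend 0 related-list genes. With the replicate block 914 genes, 3 polymerase genes and 10 related-list genes were called, and 1107 genes, 4 polymerase genes and 11 related-list genes with block and length correction together. Over genes as a whole same-lettered libraries did not deviate together (correlation -0.0095 over 6390 genes). A single correlation over all genes cannot show a common origin that acts on some of them, and the labels do not say what the letters mean.

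Leaving out a library moved medians from 0.49 to 0.71 (Pol I alone), 0.061 to 0.40 (Pol II) and 0.056 to 0.24 (Pol I factors). The sign turned for polr2f with library totals (-0.13), with the length trend removed (-0.037, also with the block) and with a library left out (-0.12 to 0.18). It turned with a library left out for polr2b (-0.028 to 0.47), polr2i (-0.15 to 0.40, and -0.042 with library totals), taf1b (-0.25 to 0.056), ubtf (-0.24 to 0.032), gtf3c2 (-0.17 to 0.039) and hace1 (-0.45 to 0.026). The cause was not tested. Of the 22 tested genes, 16 kept their sign in every setting they could be fitted in. The exon use count of 0 held in each setting run, among them exon counts summed over transcripts, chosen after seeing the data. Low counts limit taf1a, taf1b, gtf3c2, brf1b and polr2m.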
